A study of Homo sapiens with 6 samples.

Results

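Glycolysis and the response to low oxygen were followed through 43 genes of the 17860 in the expression table. They were chosen by symbol and cover the glycolytic enzymes, the transporters of glucose and lactate, the hypoxia-inducible factors (HIFs), their oxygen sensors and a set of HIF target genes. All 43 symbols were found, each had a value in every sample, and 43 of 43 passed the filter on low counts. The cells were HCC1806-HM3, a human breast squamous carcinoma line that had been selected for liver metastasis through 3 rounds in mice and was here grown in culture in RPMI medium with fetal bovine serum. Every sample carried a lentiviral shRNA and had been selected with G418. The 3 shNC samples held a control shRNA, and the 3 shMSLN samples held an shRNA against MSLN, the gene of the cell-surface protein mesothelin. Each arm was a stably infected population, the sources do not say which of the available MSLN shRNAs it carried, and separate cultures are not stated, so the p-values below measure the spread between these samples, which may be technical. The oxygen tension and glucose of the medium at harvest are not given in the sources used here.

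Glycolysis splits glucose into pyruvate in the cytosol, and lactate dehydrogenase and the monocarboxylate transporters carry the product on to lactate and out of the cell. HIF is a pair of proteins, an oxygen-labile alpha subunit (HIF1A or EPAS1) and a stable partner (ARNT). With oxygen present, the EGLN prolyl hydroxylases mark the alpha subunit, VHL has it degraded, and HIF1AN blocks its activity. When oxygen falls the alpha subunit persists, enters the nucleus and raises glucose transporters, most glycolytic enzymes and genes such as VEGFA and ADM. Much of this control acts on protein, which was not measured here.

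MSLN itself was measured at 231, 226 and 227 CPM (counts scaled to library size with TMM factors) in the shNC samples and at 37.1, 36.2 and 35.4 CPM in the shMSLN samples, so the labels and the targeted gene matched in all 6 libraries. Totals of estimated counts lay between 17507837 and 18512135 per sample, and the 43 genes took between 1.24% and 1.42% of them. In shMSLN replicates 2 and 3, 47.7% of the genes with more than 100 reads had a whole-number count, against 3.36% to 7.02% in the other 4 samples. Of the 43 genes, 25 had a whole-number count in each of those 2 samples and 1 to 3 in the others. Each gene was therefore also tested with shMSLN replicate 1 as the only knockdown sample. Of marker lists for other cell types, the immune list summed to 38.96 to 43.12 TPM (a scale that also corrects for transcript length). The endothelial list summed to 2.45 to 3.01 TPM and the hepatocyte list to 0.37 to 1.54 TPM. Both groups overlapped in each of these sums. Within the endothelial list, VWF was at 1.15 to 1.41 TPM in shNC and 1.61 to 1.81 TPM in shMSLN samples. CDH5 was at 0.53 to 0.92 TPM in shNC and 0.26 to 0.44 TPM in shMSLN samples. Of the 3 endothelial markers tested, 1 rose and 0 fell by the same test as below. The fibroblast list of 7 summed to 62.9 ± 1.82 TPM in shNC and 119.5 ± 1.63 TPM in shMSLN samples (SD, n = 3 each), of which LUM alone gave 47.16 to 51.02 TPM in shNC and 103.81 to 107.21 TPM in shMSLN samples. COL1A2, COL3A1, DCN and PDGFRA stayed under 1 TPM in every sample. DCN lay at 0.27 to 0.39 TPM in shNC and at 0.59 to 0.8 TPM in shMSLN samples. Of the 5 fibroblast markers tested, 2 rose and 0 fell by the same test as below. The 9 epithelial and basal markers summed to 4653 ± 217 TPM in shNC and 4097 ± 71.1 TPM in shMSLN samples. They did not move together. By the same test as below 4 fell, KRT5, KRT6A, KRT18 and TP63, and 2 rose, CDH1 and KRT17, while EPCAM, KRT8 and KRT14 did not pass. In bulk RNA, fewer cells of a type and less RNA per cell cannot be told apart, and the part of these markers in the results was not tested.

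Of the 43 genes, 19 rose and 6 fell in shMSLN cells by edgeR's quasi-likelihood test with an adjusted p below 0.05 over 14552 tested genes, and 18 did not pass. Among all tested genes 16.6% rose and 18.0% fell. Of the 10502 genes with a mean of at least 10 CPM 17.2% rose and 22.1% fell, and 39 of the 43 genes, with all 25 of those called, were in that range. The median log2 fold change (shMSLN minus shNC) of the 43 was 0.13, beside 0.0019 over all tested genes. The differences were small. The median size of the log2 fold change was 0.29 over the 25 genes that passed and 0.29 over all 5032 that did. Of these 25, only SLC2A3 and ADM differed by more than 1.5-fold. Groups did not overlap for 31 of the 43 genes, beside 46.2% of all tested genes.

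With shMSLN replicate 1 alone against the shNC samples, 8 of the 43 were called higher and 1 lower. SLC2A1, SLC2A3, ALDOC, EGLN3, VEGFA, ADM, NDRG1 and P4HA1 were the 8, and VHL was the 1. The same 9 passed at the adjusted p threshold in every other fit tried. All 25 of 25 called genes kept their sign with that sample alone. The groups of all 25 did not overlap in CPM, so that outcome was nearly fixed in advance and adds no support to the calls.

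**Figure D1:**
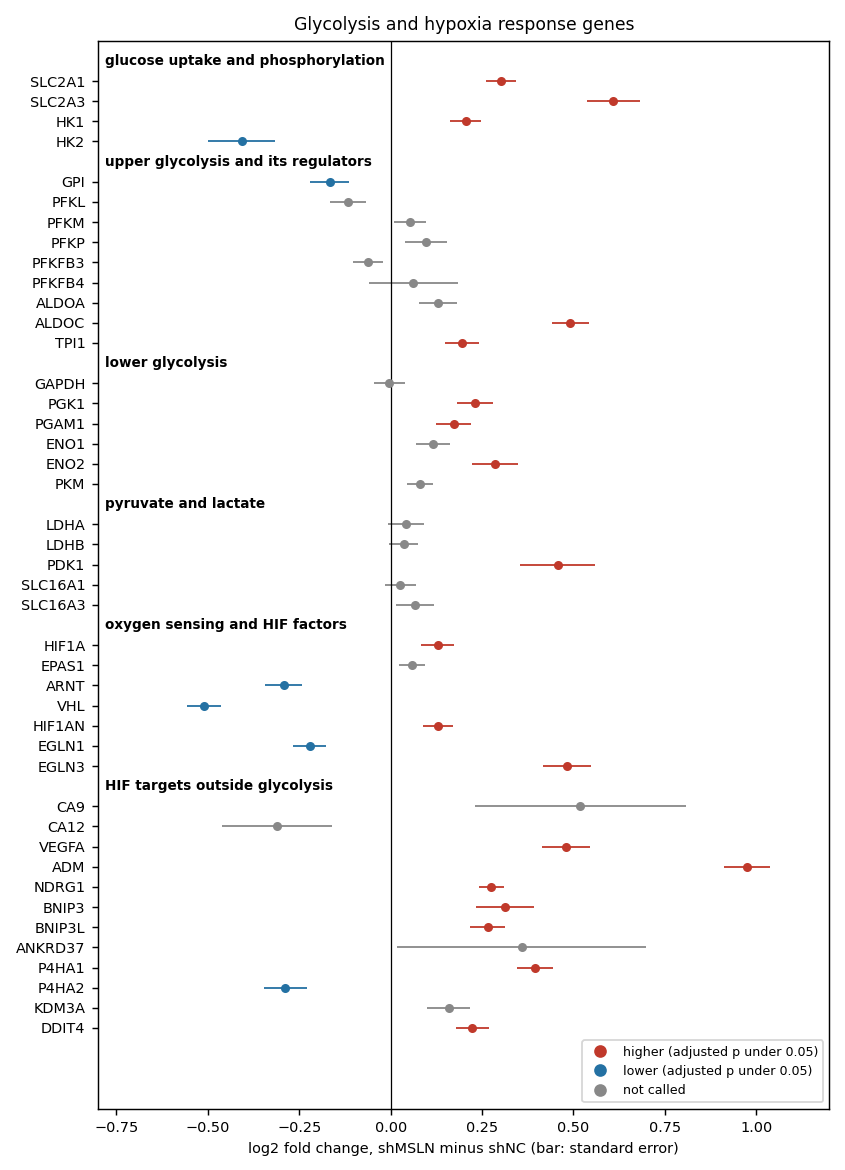
Log2 fold changes (shMSLN minus shNC) of the 43 genes with their standard errors, grouped by role, from edgeR's fit to 3 shNC and 3 shMSLN samples. Red points are higher and blue points lower at an adjusted p under 0.05, and grey points did not pass. ADM, at 0.97, lies farthest to the right and VHL, at -0.51, farthest to the left.

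Per transcript, the 8 most abundant of the 43 were glycolytic enzymes, while others of the pathway, such as ENO2 and HK2, lay far lower. GAPDH led in shNC cells at 5683 ± 265 TPM (SD, n = 3), followed by ENO1 at 1955 ± 121, PKM at 1499 ± 40.6, ALDOA at 1268 ± 89.6 and LDHA at 1052 ± 73.5 TPM. LDHB and TPI1 followed at 753.1 ± 22.6 and 753.0 ± 44.6 TPM and overlapped. NDRG1, a stress-responsive gene, was the most abundant of the HIF targets outside glycolysis at 381.1 ± 9.73 TPM. EPAS1, the alpha subunit HIF2A, lay above HIF1A, at 145.6 ± 5.35 against 72.1 ± 4.44 TPM. At the lower end, ANKRD37, CA12 and CA9 had 2.11 ± 0.796, 1.61 ± 0.0321 and 1.16 ± 0.270 TPM. CA9 codes for a cell-surface carbonic anhydrase that is widely used as a hypoxia marker. Along this order, 20 of the 42 neighbouring pairs overlapped between their shNC samples, among them PFKP with PFKL, VEGFA with EGLN3 and HK2 with PDK1.

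**Figure D2:**
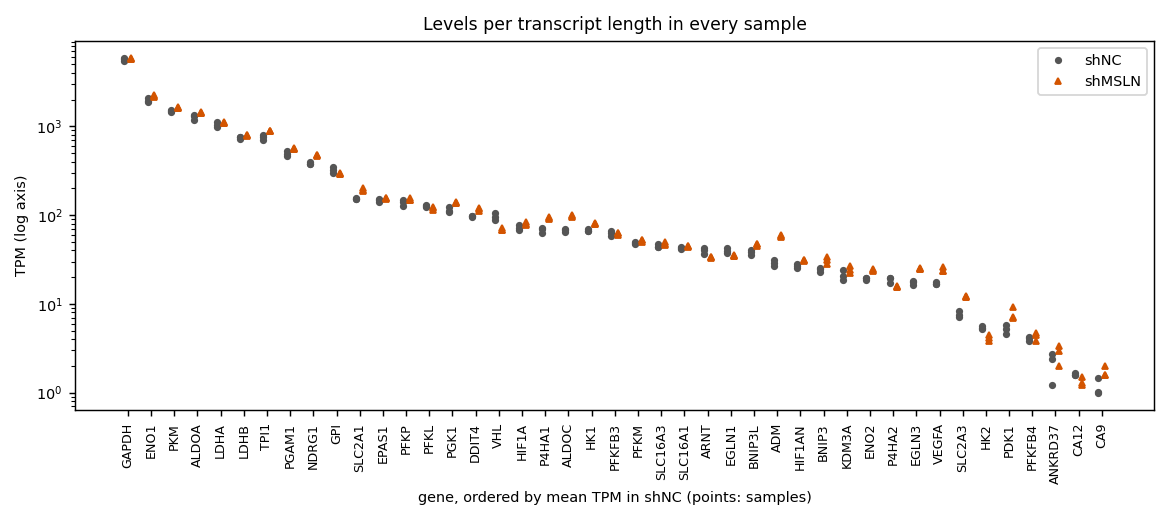
TPM of each of the 43 genes in every sample, on a log axis, ordered by the mean of the 3 shNC samples (circles, shNC; triangles, shMSLN). Levels ran from 5683 TPM for GAPDH to 1.16 TPM for CA9, and the differences between groups are small beside this range.

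All 4 genes of glucose uptake and phosphorylation changed, 3 up and 1 down (75% and 25%, beside 16.6% and 18.0% of all tested genes). SLC2A1, the glucose transporter GLUT1, stood at 247.4, 228.8 and 234.6 CPM in shNC samples and at 305.2, 286.3 and 284.3 CPM in shMSLN samples. SLC2A3, the high-affinity transporter GLUT3, went from 13.5, 14.3 and 12.6 CPM to 21.0, 20.2 and 20.6 CPM. Neither gene's groups overlapped. The log2 fold change was 0.30 (SE 0.042, adjusted p = 5.95e-05) for SLC2A1 and 0.61 (SE 0.073, adjusted p = 1.72e-05) for SLC2A3. The hexokinases, which trap glucose in the cell as glucose 6-phosphate, moved apart. HK1, the housekeeping form, rose from 110.5 ± 5.39 to 127.3 ± 2.19 CPM (SD, n = 3 each; log2 fold change 0.21, adjusted p = 0.0021 by edgeR). HK2, the inducible form and a known HIF target, was at 13.2, 13.2 and 14.4 CPM in shNC and 10.1, 11.3 and 9.43 CPM in shMSLN samples. Every shMSLN sample lay below every shNC sample, with a log2 fold change of -0.41 (SE 0.092, adjusted p = 0.0033). With shMSLN replicate 1 alone the adjusted p was 0.084 for HK1 and 0.057 for HK2.

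Upper glycolysis showed 2 rises and 1 fall among 9 genes (22.2% and 11.1%), near the 16.6% and 18.0% of all tested genes. ALDOC, the brain-type aldolase, moved most, from 50.5, 46.2 and 51.0 CPM to 71.3, 68.9 and 67.6 CPM. These samples did not overlap, and the log2 fold change was 0.49 (SE 0.051, adjusted p = 3.70e-06). TPI1, which interconverts the triose phosphates, rose from 456.8 ± 36.2 to 523.0 ± 7.58 CPM (SD, n = 3 each; log2 fold change 0.20, adjusted p = 0.00525). The gene GPI, glucose-6-phosphate isomerase, stood at 399.6, 328.3 and 366.6 CPM in shNC and at 324.1, 324.6 and 326.0 CPM in shMSLN samples. It fell by 0.17 on the log2 scale (SE 0.054, adjusted p = 0.026), and the lowest shNC sample lay close above the shMSLN samples. With each sample left out in turn the GPI call was kept only without shNC replicate 2, and its adjusted p otherwise lay between 0.060 and 0.085. None of the 3 phosphofructokinase genes passed. The log2 fold changes were -0.12 for PFKL, 0.05 for PFKM and 0.10 for PFKP, with adjusted p of 0.077, 0.36 and 0.22. PFKFB3 and PFKFB4, the kinases that make the phosphofructokinase activator fructose 2,6-bisphosphate, had log2 fold changes of -0.06 (95% interval -0.15 to 0.03) and 0.06 (95% interval -0.20 to 0.32).

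In lower glycolysis 3 of 6 genes rose (50%) and 0 fell, beside 16.6% and 18.0% of all tested genes. PGK1, which makes the first ATP of the pathway, was at 254.6 ± 20.5 CPM in shNC samples and 298.9 ± 3.99 CPM in shMSLN samples (SD, n = 3 each). PGAM1, phosphoglycerate mutase, stood at 430.3, 367.5 and 395.6 against 447.0, 456.5 and 441.5 CPM. Both separated the groups, with shNC replicate 1 nearest to the shMSLN samples. The log2 fold change was 0.23 (SE 0.048, adjusted p = 0.0019) for PGK1 and 0.17 (SE 0.048, adjusted p = 0.011) for PGAM1, and the latter lost its call without shMSLN replicate 2 (adjusted p = 0.059). ENO2, the neuronal enolase, rose from 20.1 ± 0.496 to 24.5 ± 0.330 CPM (SD, n = 3 each; log2 fold change 0.29, adjusted p = 0.0025). GAPDH, the most abundant of the genes, stood at 3450, 3023 and 3335 CPM in shNC and 3363, 3209 and 3212 CPM in shMSLN samples. Its groups overlapped and its log2 fold change was -0.0037, with a 95% interval from -0.09 to 0.09, and it turned to 0.026 with upper-quartile scaling. ENO1 and PKM, the main enolase and the pyruvate kinase, had log2 fold changes of 0.12 and 0.08 with adjusted p of 0.070 and 0.10.

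Most enzymes of the trunk were highest and lowest in the same shNC samples. Of 17 enzymes from hexokinase to lactate dehydrogenase, shNC replicate 1 had the highest CPM of the 3 shNC samples for 15, and shNC replicate 2 the lowest for 14. That order was not counted over all tested genes, so it cannot be called particular to glycolysis. The summed epithelial and basal markers had it too (4879, 4445 and 4635 TPM in shNC samples), and the sums of the other marker lists did not. The median coefficient of variation of these enzymes was 6.75% in shNC and 1.70% in shMSLN samples, beside 5.98% and 4.50% over all tested genes. Without shNC replicate 1, the log2 fold changes of ALDOA (0.18), ENO1 (0.18), PKM (0.11), LDHA (0.11) and PFKP (0.16) passed the test, with adjusted p between 0.00039 and 0.030. Without shNC replicate 2 the same genes had log2 fold changes of 0.06, 0.07, 0.05, -0.02 and 0.02, with adjusted p between 0.18 and 0.72. With all samples the 5 genes had adjusted p between 0.062 and 0.55. Summed TPM of the 17 enzymes was 15058, 13623 and 14399 in shNC and 15535, 15256 and 15194 in shMSLN samples. The means differed by a factor of 1.07 without overlap, beside a median factor of 1.02 over all tested genes in the same unit. Copies of these genes elsewhere in the genome bear on the counts. GENCODE release 29 names 62 pseudogenes for GAPDH, 13 for PGAM1, 6 for LDHA, 5 for PKM, 4 each for ENO1 and TPI1 and 39 for BNIP3, and the expression table holds 0 of them, so reads from such copies could be counted with the parent gene.

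Between pyruvate and lactate, PDK1 was the only 1 of 5 genes to pass (20% higher, near the 16.6% of all tested genes). PDK1, the kinase that shuts pyruvate out of the mitochondrial dehydrogenase, stood at 11.4, 9.26 and 11.2 CPM in shNC and at 13.4, 16.4 and 13.9 CPM in shMSLN samples. Every shMSLN sample was above every shNC sample, and the log2 fold change was 0.46 (SE 0.104, adjusted p = 0.0034). The log2 fold change was 0.37 without shMSLN replicate 2 and 0.34 with shMSLN replicate 1 alone. LDHA and LDHB, the muscle-type and heart-type subunits of lactate dehydrogenase, had 95% intervals of -0.06 to 0.15 and -0.05 to 0.12 around log2 fold changes of 0.04 and 0.04. For the monocarboxylate transporters SLC16A1 (MCT1) and SLC16A3 (MCT4) the log2 fold changes were 0.03 (95% interval -0.06 to 0.12) and 0.07 (95% interval -0.04 to 0.18). The groups of these 4 genes overlapped in CPM.

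Oxygen-sensing genes split in direction, with 3 higher and 3 lower of 7 (42.9% each, beside 16.6% and 18.0% of all tested genes). VHL, which hands the hydroxylated alpha subunit to degradation, fell most. It was measured at 183.5, 206.1 and 194.2 CPM in shNC and 135.3, 133.3 and 141.3 CPM in shMSLN samples. The groups lay far apart, with a log2 fold change of -0.51 (SE 0.046, adjusted p = 8.82e-07). Of the prolyl hydroxylases, EGLN1 (PHD2) fell and EGLN3 (PHD3), itself a HIF target, rose. EGLN1 stood at 75.6, 81.6 and 78.6 CPM in shNC and at 67.4, 68.5 and 66.4 CPM in shMSLN samples (log2 fold change -0.22, SE 0.045, adjusted p = 0.0017). EGLN3 stood at 22.9, 19.8 and 21.98 against 30.7, 30.1 and 29.7 CPM (log2 fold change 0.48, SE 0.066, adjusted p = 5.29e-05). ARNT, the shared partner of both alpha subunits, fell from 79.5 ± 4.67 to 64.9 ± 1.87 CPM (SD, n = 3 each; log2 fold change -0.29, adjusted p = 0.00046). HIF1A rose from 130.4 ± 5.57 to 142.6 ± 5.50 CPM and HIF1AN, the asparaginyl hydroxylase FIH, from 98.6 ± 2.71 to 107.8 ± 2.24 CPM, each by 0.13 on the log2 scale. Those changes were near the threshold, with adjusted p of 0.035 and 0.025 by edgeR and 0.058 and 0.062 by DESeq2. Of 6 fits that left out a sample, the HIF1A call was kept in 1 and the HIF1AN call in 2. EPAS1 did not pass, at a log2 fold change of 0.06 (95% interval -0.02 to 0.13).

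The 12 chosen HIF targets outside glycolysis moved mostly upward, with 7 higher and 1 lower (58.3% and 8.33%). A further list of 44 tested HIF targets did not share this lean, with 10 higher (22.7%) and 8 lower (18.2%). Among all tested genes 16.6% rose and 18.0% fell. ADM, which codes for the vasodilator peptide adrenomedullin, showed the largest change of the 43. It was at 19.6, 20.5 and 18.3 CPM in shNC samples and at 39.6, 38.1 and 36.9 CPM in shMSLN samples. That is a 1.96-fold difference with no overlap (log2 fold change 0.97, SE 0.063, adjusted p = 3.29e-08). VEGFA, the endothelial growth factor, rose from 26.7, 23.1 and 24.3 CPM to 34.2, 33.4 and 35.7 CPM (log2 fold change 0.48, SE 0.065, adjusted p = 4.97e-05). NDRG1 rose from 518.0, 511.1 and 540.1 CPM to 635.7, 639.3 and 624.9 CPM (log2 fold change 0.28, SE 0.034, adjusted p = 2.25e-05). Both genes had every shMSLN sample above every shNC sample. BNIP3 and BNIP3L, receptors that mark mitochondria for removal by mitophagy, rose by 0.31 and 0.27 on the log2 scale (adjusted p = 0.0063 and 0.00071). BNIP3 was the more variable of the pair, with 21.3, 22.7 and 19.2 CPM in shMSLN against 16.1, 16.9 and 17.9 CPM in shNC samples. DDIT4 (REDD1), an inhibitor of mTORC1, rose from 76.2 ± 2.88 to 89.0 ± 2.68 CPM (SD, n = 3 each; log2 fold change 0.22, adjusted p = 0.0016).

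The collagen prolyl 4-hydroxylase subunits P4HA1 and P4HA2 changed in opposite directions. P4HA1 stood at 80.3, 86.0 and 91.7 CPM in shNC and at 110.8, 113.9 and 114.4 CPM in shMSLN samples (log2 fold change 0.40, SE 0.049, adjusted p = 2.10e-05). P4HA2 stood at 37.8, 40.5 and 42.6 against 34.0, 32.7 and 32.2 CPM (log2 fold change -0.29, SE 0.058, adjusted p = 0.0015). No sample of either gene crossed into the range of the other group. KDM3A, a histone demethylase, missed the threshold, at 0.16 on the log2 scale and an adjusted p of 0.0501, and passed it with RLE scaling (adjusted p = 0.048). The 3 least abundant targets did not pass. CA9 was at 1.04, 0.665 and 0.724 CPM in shNC and 1.07, 1.35 and 1.07 CPM in shMSLN samples, with a 95% interval of the log2 fold change from -0.10 to 1.13. CA12 and ANKRD37 had intervals of -0.63 to 0.01 and -0.37 to 1.09, with adjusted p of 0.13 and 0.45. The lowest count of any of the genes was 7.71 reads, for ANKRD37, and the standard errors of CA9, CA12 and ANKRD37 were 0.29, 0.15 and 0.34, wider than those of the other genes.

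**Figure D3:**
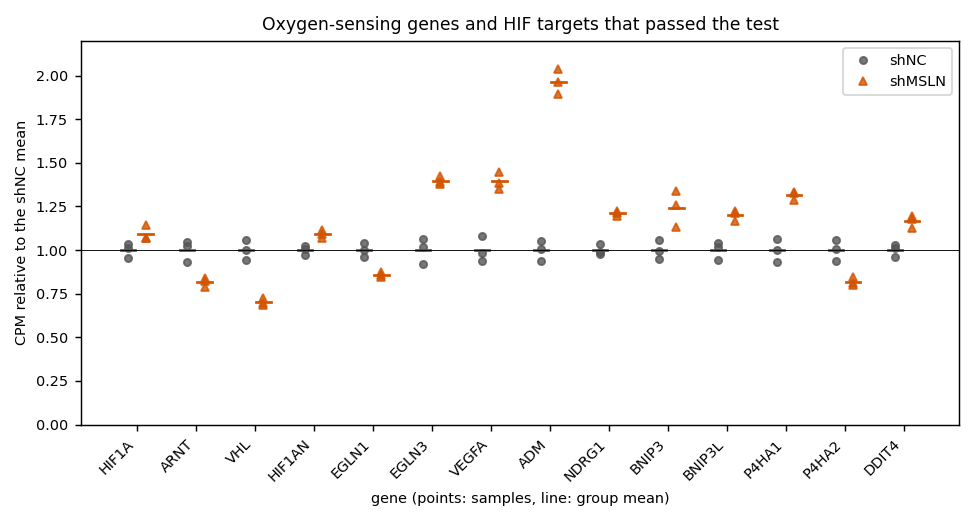
CPM of the oxygen-sensing genes and HIF targets that passed the test, divided by the mean of the 3 shNC samples, with 1 point per sample and a line at each group mean (circles, shNC; triangles, shMSLN). The shMSLN points of ADM lie near 1.96, those of EGLN3 near 1.40, and those of VHL near 0.702.

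Because paired isozymes moved unequally, the make-up of 13 families was set out as the share of their summed TPM held by 1 member. EGLN3 made up 32.6%, 28.0% and 31.1% of EGLN1 plus EGLN3 in shNC samples and 42.3%, 41.2% and 42.0% in shMSLN samples. P4HA2 made up 21.4%, 21.6% and 21.3% of the P4HA1 and P4HA2 sum in shNC and 15.2%, 14.4% and 14.3% in shMSLN samples. The share of HK2 in both hexokinases went from 7.40% ± 0.528 to 4.93% ± 0.329 (SD, n = 3 each). By contrast, LDHB held 41.7% ± 1.15 of lactate dehydrogenase in shNC and 41.7% ± 0.282 in shMSLN samples, and SLC16A3 held 51.2% ± 0.962 and 51.8% ± 0.950 of both lactate transporters. The glucose transporter SLC2A3 went from 4.79% ± 0.390 to 5.86% ± 0.140 of SLC2A1 plus SLC2A3, and ALDOC from 5.07% ± 0.224 to 6.41% ± 0.111 of both aldolases. In 9 of the 13 families the groups did not overlap. Groups did not overlap for 46.2% of all tested genes taken singly, and no such share was worked out for other gene families. For those 9 the exact two-sided permutation test gave p = 0.1, the smallest value that 3 samples against 3 allow, and 0.14 after adjustment over the 13 families, so this test could not pass the threshold. CA12 held 58.5% ± 4.93 of CA9 plus CA12 in shNC and 43.7% ± 5.64 in shMSLN samples, on few reads.

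**Figure D4:**
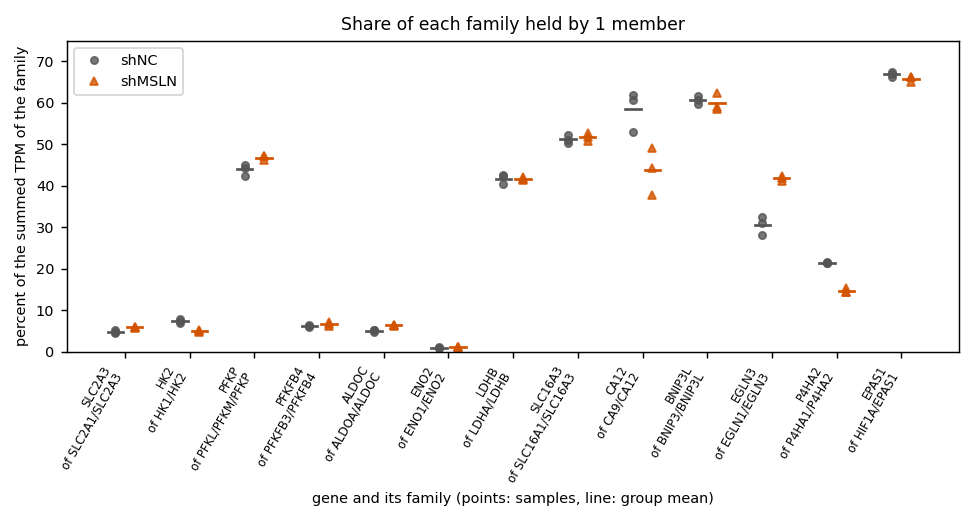
Share (percent) of a family's summed TPM held by its named member in each sample, with a line at the group mean (circles, shNC; triangles, shMSLN). Means of shNC and shMSLN samples are 30.6% and 41.8% for EGLN3, 21.5% and 14.6% for P4HA2, and 41.7% in both groups for LDHB.

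HIF binds DNA at the hypoxia response element, whose core is ACGTG or GCGTG. Both were searched on both strands of the 250 bases before the annotated starts in RefSeq (GRCh38.p14). Windows were at hand for 37 of the 43 genes, and BNIP3L, NDRG1, SLC16A1, SLC2A3, VEGFA and VHL had none. ACGTG was found for 20 of the 37 genes, and 21.7% of all 27305 genes with a window held it. GCGTG was found for 19 of the 37, beside 36.2% of all genes. Counted by window, as genes can have several starts, 35.4% of 65 windows of these genes and 18.5% of all 35116 windows held ACGTG, and 33.8% and 32.2% held GCGTG. Genes with a match were among those that rose, fell and did not pass. ACGTG was found for 8 of 15 genes that rose, 3 of 5 that fell and 9 of 17 that did not pass. The genes were chosen partly as known HIF targets, so a larger share with a HIF core can follow from that choice and says nothing about these samples. A match is a run of letters and not a measured binding site.

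The windows below are examples that hold a match, and no window without a match or of a gene that fell is shown. They are those of 5 genes that rose, ADM, ALDOC, P4HA1, PGK1 and ENO2, and of LDHA, which held 5 ACGTG matches and did not pass the test. LDHA had 2 windows, and the other is not shown. Matches on either strand are in capitals (CACGT and CACGC are the cores on the opposite strand, and CACGTG holds 1 match on each strand). They lie at chr11:10304823-10305072 on the plus strand for ADM, chr17:28576896-28577145 on the minus strand for ALDOC, chr10:73096867-73097116 on the minus strand for P4HA1, chrX:78103998-78104247 on the plus strand for PGK1, chr12:6914330-6914579 on the plus strand for ENO2 and chr11:18394313-18394562 on the plus strand for LDHA. Each runs 5′ to 3′ and ends at the base before the start of transcription.
ADM: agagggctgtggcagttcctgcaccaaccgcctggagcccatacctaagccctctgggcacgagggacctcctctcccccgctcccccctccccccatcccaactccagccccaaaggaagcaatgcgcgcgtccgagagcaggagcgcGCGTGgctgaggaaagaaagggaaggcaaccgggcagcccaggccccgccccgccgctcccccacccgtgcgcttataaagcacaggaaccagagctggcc
ALDOC: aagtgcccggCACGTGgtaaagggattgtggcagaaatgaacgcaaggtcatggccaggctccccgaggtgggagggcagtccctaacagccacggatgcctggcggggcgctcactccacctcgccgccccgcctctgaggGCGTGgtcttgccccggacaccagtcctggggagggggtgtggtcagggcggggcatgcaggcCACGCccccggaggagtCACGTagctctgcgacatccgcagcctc
P4HA1: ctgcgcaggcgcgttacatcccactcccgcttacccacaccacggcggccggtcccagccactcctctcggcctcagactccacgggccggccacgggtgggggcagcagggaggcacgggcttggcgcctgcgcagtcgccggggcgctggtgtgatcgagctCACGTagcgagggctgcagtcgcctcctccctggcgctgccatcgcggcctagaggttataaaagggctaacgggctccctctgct
PGK1: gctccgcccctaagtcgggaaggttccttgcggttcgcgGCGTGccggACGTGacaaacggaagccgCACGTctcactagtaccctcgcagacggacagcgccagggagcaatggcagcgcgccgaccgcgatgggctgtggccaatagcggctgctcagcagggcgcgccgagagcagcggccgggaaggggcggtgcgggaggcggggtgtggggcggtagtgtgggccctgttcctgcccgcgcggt
ENO2: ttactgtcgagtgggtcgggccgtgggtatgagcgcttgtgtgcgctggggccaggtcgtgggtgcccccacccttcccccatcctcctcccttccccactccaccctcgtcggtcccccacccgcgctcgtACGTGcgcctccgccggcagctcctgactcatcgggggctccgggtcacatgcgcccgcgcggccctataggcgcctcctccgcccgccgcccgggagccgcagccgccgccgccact
LDHA: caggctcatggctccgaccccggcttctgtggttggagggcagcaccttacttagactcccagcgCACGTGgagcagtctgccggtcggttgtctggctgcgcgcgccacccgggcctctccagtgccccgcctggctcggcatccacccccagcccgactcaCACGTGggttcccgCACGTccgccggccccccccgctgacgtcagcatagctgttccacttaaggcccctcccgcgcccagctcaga

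ADM, which rose most, held 0 ACGTG and 1 GCGTG match in its window, ALDOC 3 and 2, PGK1 2 and 1, and P4HA1 and ENO2 1 and 0 each. LDHA, with 5 ACGTG matches, stood at 1154, 964.5 and 1066 CPM in shNC and 1092, 1102 and 1084 CPM in shMSLN samples.

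Further genes around the pathway were counted in 6 lists, to be read beside the 16.6% of all tested genes that rose and the 18.0% that fell. In the list of pyruvate entry and the TCA cycle, which burns pyruvate in mitochondria, 18 of 31 tested genes fell (58.1%) and 0 rose, with a median log2 fold change of -0.16. In other settings, 1 gene of that list passed upward with upper-quartile scaling, in the fit with the replicate block and in the fit without shNC replicate 1, and 3 fell with shMSLN replicate 1 alone. IDH3A, a subunit of isocitrate dehydrogenase, fell from 37.7 ± 0.713 to 26.8 ± 1.47 CPM (SD, n = 3 each; log2 fold change -0.49, adjusted p = 1.43e-05). SUCLA2, CS, PDP2 and PC fell by 0.29, 0.22, 0.28 and 0.31 on the log2 scale. These code for a succinyl-CoA ligase subunit, citrate synthase, a phosphatase that activates pyruvate dehydrogenase and pyruvate carboxylase.

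In the list of glucose sensing and the MYC axis, 4 of 17 genes rose (23.5%) and 2 fell (11.8%). TXNIP, a restrainer of glucose uptake that is induced by glucose itself, stood at 239.8, 294.8 and 274.7 CPM in shNC and at 598.4, 598.5 and 594.0 CPM in shMSLN samples. Its log2 fold change of 1.15 (SE 0.055, adjusted p = 2.06e-09) was above that of any of the 43 genes. ARRDC4, a relative of TXNIP, rose from 13.1 ± 1.61 to 25.8 ± 0.637 CPM (log2 fold change 0.97), and MLXIP (MondoA), a glucose-sensing transcription factor that drives both, from 91.5 ± 2.58 to 131.4 ± 1.39 CPM (log2 fold change 0.52). MYC and PRKAA2, an AMPK catalytic subunit, fell by 0.23 and 0.44 on the log2 scale (adjusted p = 0.0070 and 0.024). The count of lower genes was 1 by DESeq2 and without shNC replicate 2 or shMSLN replicate 1 or 3, and the adjusted p of PRKAA2 reached 0.093 with a sample left out.

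Of 44 other HIF targets tested 10 rose (22.7%) and 8 fell (18.2%), with a median log2 fold change of 0.05. TFRC (the transferrin receptor), ZNF395 and ERO1A (an oxidase of protein folding) rose by 0.59, 0.63 and 0.48. IGFBP3, a binding protein of insulin-like growth factors, fell from 3654 ± 148 to 2532 ± 19.1 CPM (log2 fold change -0.53). PFKFB2, a further kinase of fructose 2,6-bisphosphate, fell from 24.0 ± 0.772 to 15.3 ± 0.846 CPM (log2 fold change -0.64). PFKFB2 is also in the list of other glycolysis genes and is counted as lower in both lists. In that list of other glycolysis genes 4 of 20 rose (20.0%) and 6 fell (30.0%). SLC2A12 (0.40), ADPGK (0.30) and BPGM (0.32) were higher on the log2 scale. PGAM5 (-0.37) was lower, and it was listed by its family name, without a check of its part in glycolysis. In glycogen and pentose phosphate metabolism 5 of 16 rose (31.2%) and 3 fell (18.8%). The glycogen genes GBE1, PYGL and PPP1R3C were higher by 0.35, 0.21 and 0.59, and TKT, transketolase, was lower by 0.36. Of 17 other oxygen-sensing and HIF genes 1 rose (5.88%) and 4 fell (23.5%). EGLN2 (PHD1) fell by 0.41, and the chaperone HSP90AA1, which stabilises HIF1A, by 0.21. ARNT2, RACK1 and RBX1 had log2 fold changes of -1.08, -0.11 and 0.20 with adjusted p of 0.020, 0.021 and 0.042, the first at 1.22 ± 0.248 CPM in shNC cells. The groups of RBX1 overlapped, and with a sample left out the adjusted p of these 3 reached 0.098, 0.12 and 0.17. The count of higher genes in that list was 3 without shNC replicate 1 and 2 with upper-quartile scaling. It was 0 by DESeq2 and without shNC replicate 2 or 3 or shMSLN replicate 2 or 3. The count of lower genes was 6 without shNC replicate 2, and 2 without shNC replicate 3 or shMSLN replicate 3. With shMSLN replicate 1 alone, these counts of higher and lower genes became 5 and 4 for other HIF targets, 3 and 1 for other glycolysis genes, 3 and 1 for glycogen and pentose phosphate metabolism, 3 and 0 for glucose sensing and MYC, and 0 and 0 for other oxygen-sensing genes. Without shMSLN replicate 1, 3 other glycolysis genes fell in place of 6.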

How the data were processed

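RNA-Seq of 3 shNC and 3 shMSLN samples of HCC1806-HM3 cells was examined, and groups and replicate numbers were taken from the sample labels. The authors deposited 1 table with estimated counts, FPKM and TPM values per gene. The submitters' processing notes name GRCh38.p13, and the aligner and counter are not given in the sources used here. The deposited estimated counts are not scaled to depth. The authors' TPM values, scaled for length and depth, were used for levels between genes and family shares, and the deposited FPKM values were not used. Of 17860 genes, 1287 without a value in 1 or more shMSLN samples were left out, and 14552 passed edgeR's filterByExpr.

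After rounding, estimated counts entered edgeR 4.0.16 under R 4.3.3 (TMM scaling, glmQLFit, glmQLFTest, no covariate, Benjamini-Hochberg over all tested genes, threshold 0.05). Standard errors are the log2 fold change over the square root of F, with 95% intervals from the t distribution of that fit. CPM use TMM-scaled totals, and no pseudocount was added to TPM. The test was checked on simulated counts. The 43 genes and all lists were chosen with earlier results of these data known. All 43 could be named, and from each further list the 5 tested genes with the smallest adjusted p under 0.05, of which 1 is not reported here. Promoters were taken from RefSeq (GRCh38.p14) and pseudogenes from GENCODE release 29.

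Other settings were upper-quartile or RLE scaling, no count filter beyond 1 read or at least 10 reads in every sample, DESeq2 1.42.0, limma-voom (limma 3.58.1), the replicate number as a block, missing values as 0 counts, a fold threshold of 1.5, shares of CPM in place of TPM and leaving out each of the 6 samples. The fit with shMSLN replicate 1 alone and the counts of further lists under each setting were added after seeing the data.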

Additional observations from a re-analysis of the deposited data

How the results depend on the processing

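Over 15 other settings, 580 of 644 values of the 43 genes kept their direction and side of the threshold, 34 lost a call, 21 gained one and 9 turned sign. With shMSLN replicate 1 alone, taken to vary like the shNC samples, 1797 genes in all were called in place of 5032, and 8 of the 43 genes were called higher and 1 lower in place of 19 and 6. With a fold change above 1.5 as well, 2 were higher and 0 lower. Leaving out each sample gave 3695 to 5399 genes in all, 16 to 23 of the 43 higher and 5 to 7 lower. The genes that turned sign were not called: GAPDH (log2 fold change 0.0427 with shMSLN replicate 1 alone, 0.0255 with upper-quartile scaling and -0.0561 to 0.0357 with a sample left out), LDHA (-0.0215 to 0.105), LDHB (-0.00503 to 0.0591) and PFKFB4 (-0.0276 to 0.140). The cause was not tested. Same-numbered samples deviated together with correlations of 0.16, 0.08 and 0.07, each sample correlating best with its own number, but the labels do not pair them. With the replicate block 5789 genes in all, 23 of the 43 higher and 7 lower were called, with ALDOA, ENO1, KDM3A, PFKL and PKM gained. Upper-quartile scaling gave 23 higher and 5 lower, with the median of all genes at 0.03 and of the 43 at 0.16 (0.16 also with shMSLN replicate 1 alone). Shares of CPM moved the differences of HK2, CA12, EGLN3 and P4HA2 to -3.53, -9.37, 9.34 and -9.31 percentage points without turning any. CA9, CA12 and ANKRD37, under 5 CPM, had the widest standard errors, 0.29, 0.15 and 0.34.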
